A study of Mus musculus with 2 samples.

Results

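Bmp-ligand fibroblasts are the intestinal fibroblasts that carry transcripts of bone morphogenetic protein (BMP) ligands, of the receptor Pdgfra, or of the associated genes F3 and Foxl1. Polyps of Lkb1flox/+;Myh11-Cre/ERT2 mice (3 mice, group Lkb1_Het, called polyp here) were set against duodenum without polyps from 3 Lkb1+/+;Myh11-Cre/ERT2 mice (group WT, called normal here). Both genotypes carry the Myh11-Cre/ERT2 transgene, in which the promoter of smooth muscle myosin heavy chain drives a tamoxifen-inducible Cre, so that the floxed Lkb1 (Stk11) allele is targeted in smooth muscle and other Myh11-expressing cells. The labels give neither age, nor sex, nor tamoxifen schedule, and they name duodenum as the source of both samples. Tissue was digested with collagenase, strained, and made into 1 droplet library per group by a 10x Genomics 3' kit, and the cells of the 3 mice of a group cannot be told apart.

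A barcode was kept with at least 500 UMIs (unique transcript molecules), at least 250 genes and at most 25% mitochondrial UMIs. It was taken as a fibroblast with at least 5 UMIs of Dcn, Col1a1, Col1a2 and Col3a1 together, no UMI of the leukocyte gene Ptprc, and less than 0.5% of its UMIs from Acta2, Tagln, Myh11, Actg2 and Des. A fibroblast was a Bmp-ligand fibroblast with at least 2 UMIs of Bmp2, Bmp4, Bmp5, Bmp7, F3, Foxl1 and Pdgfra together (the cut), and fibroblasts with 0 or 1 such UMI are called below the cut. The members were thus chosen by their own UMIs of the 7 genes and of the gate genes. The class held 129 polyp cells and 27 normal cells, which made 156 of 274 fibroblasts, of 11712 kept barcodes and of 24277 barcodes in all. Below the cut were 111 polyp fibroblasts and 7 normal ones. The libraries shared 44 barcode sequences, of which 0 were fibroblasts.

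BMP ligands from the mesenchyme bind receptors on the epithelium and restrain the stem cell programme of the crypts as cells move toward the villus. In the mouse intestine a sheet of fibroblasts with high PDGFRA, including the FOXL1-marked telocytes, lies directly under the epithelium and is a main source of BMP ligands, while deeper fibroblasts make BMP antagonists such as gremlin 1 and R-spondins that sustain the crypt. Loss of 1 copy of STK11, which encodes the kinase LKB1, causes Peutz-Jeghers syndrome in humans, whose gut polyps have a smooth muscle core. The counts hold no positions, so whether the cells described here lay under the epithelium was not measured.

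In these cells the targeted gene Stk11 had 36 UMIs in polyp Bmp-ligand fibroblasts and 10 UMIs in normal ones, or 58.5 CPM in polyp (95% interval 41.0 to 81.0) and 64.7 CPM in normal cells (31.0 to 119). CPM are UMIs per 1000000 UMIs, summed over the cells of a class, and all intervals are exact, at 95%, and cover counting error only. With 1 library per group no difference could be tested, and every ratio below is a description of these libraries. The labels do not say which part of Stk11 is floxed, and 3' tags outside it say nothing of the deletion, so Stk11 does not check the labels in these cells.

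The median Bmp-ligand fibroblast had 3123 UMIs and 1346 genes in polyps, and 5580 UMIs and 2147 genes in normal duodenum. Polyp fibroblasts below the cut were shallower, with a median of 1573 UMIs, and normal ones had 5765. As a cut in whole UMIs, the rule takes deep cells more readily. Of all polyp fibroblasts, 53.75% (47.2 to 60.2) passed it, against 79.4% (62.1 to 91.3) of normal fibroblasts. After each cell was thinned to 1000 UMIs, 57 of 207 polyp fibroblasts passed, or 27.5% (21.6 to 34.2), against 2 of 32 normal ones, or 6.25% (0.766 to 20.8), with 33 shallower polyp and 2 shallower normal cells left out. The order of the libraries reversed with thinning, so neither was read as holding the larger share. Just inside the cut, at 2 UMIs, lay 40 polyp cells and 10 normal cells. Just outside it, at 1 UMI, lay 50 polyp cells and 2 normal cells.

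**Figure D1:**
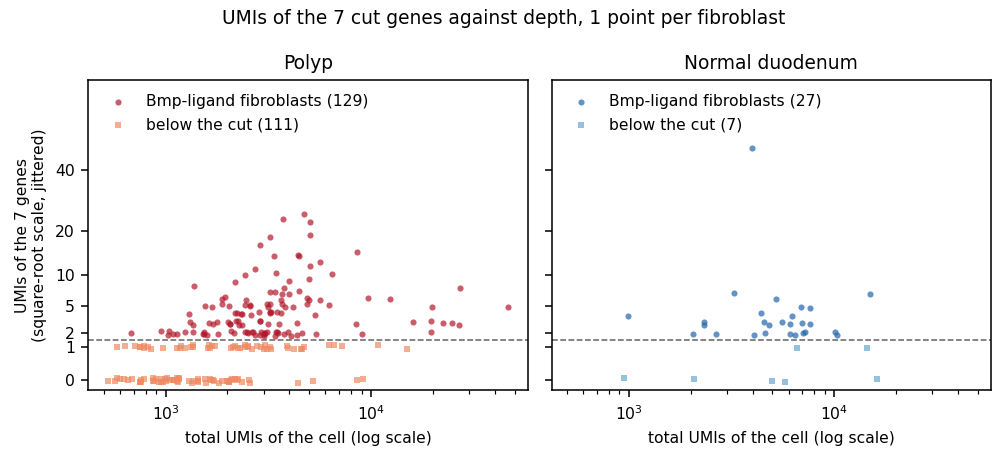
UMIs of the 7 genes of the cut (vertical axis, square-root scale with small vertical jitter) against the total UMIs of the cell (horizontal axis, log scale), 1 point per fibroblast, polyp on the left and normal duodenum on the right. The dashed line is the cut; polyp cells with 0 or 1 UMI sit mostly at lower depth, and 1 normal cell holds 49 UMIs of the 7 genes.

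The members were selected on the genes of the cut, so their levels describe the class and support nothing. All coordinates are on mouse build GRCm38 (mm10). Pdgfra (ENSMUSG00000029231, chr5:75152292-75198215, plus strand), the receptor for platelet-derived growth factor A, led in both libraries. It had 187 UMIs in 83 of 129 polyp cells, or 304 CPM (262 to 351), and 83 UMIs in 20 of 27 normal cells, or 537 CPM (428 to 666). Of the normal UMIs, 42 came from 1 cell of 3964 UMIs. Without its top cell in each library Pdgfra stood at 289.6 CPM in polyp and 272 CPM in normal members, so 1 cell sets the order of the libraries. Pdgfra made 27.7% of the cut's UMIs in polyp members and 61.5% in normal members.

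Bmp4 (ENSMUSG00000021835, chr14:46383520-46390669, minus strand), the classical mesenchymal BMP ligand of the gut, had 162 UMIs in 88 polyp cells, or 263 CPM (224 to 307), and 15 UMIs in 11 normal cells, or 97.1 CPM (54.3 to 160). Bmp2 (ENSMUSG00000027358, chr2:133552159-133562885, plus strand), a closely related ligand, had 155 UMIs in 64 polyp cells, or 252 CPM (214 to 295), and also 15 UMIs, in 12 normal cells. In polyp cells the counts of these ligands stood near that of Pdgfra, and in normal cells under it. Bmp2 was also found in epithelium and leukocytes: cells called epithelium by at least 2 Epcam UMIs had 12.7 CPM in polyps and 23.3 CPM in normal duodenum, and leukocytes (a Ptprc UMI, no Epcam or collagen UMI) had 25.2 CPM in polyps and 2.46 CPM in normal duodenum.

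Bmp5 (ENSMUSG00000032179, chr9:75775364-75900310, plus strand), a ligand of the BMP5 to BMP7 subgroup, had 82 UMIs in 34 polyp cells, or 133 CPM (106 to 165), and 3 UMIs in a single normal cell, or 19.4 CPM (4.0 to 56.8). F3 (ENSMUSG00000028128, chr3:121723537-121735048, plus strand), which encodes tissue factor and marks subepithelial fibroblasts, had 67 UMIs in 40 polyp cells, or 109 CPM (84.3 to 138), and 13 UMIs in 6 normal cells, or 84.2 CPM (44.8 to 144). Bmp7 (ENSMUSG00000008999, chr2:172868012-172940321, minus strand) was low in both, at 30.9 CPM (18.6 to 48.2) in polyp and 38.8 CPM (14.3 to 84.5) in normal members. The Bmp5 intervals of the 2 libraries did not overlap, and those of F3 and Bmp7 did.

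Foxl1 (ENSMUSG00000097084, chr8:121127940-121130644, plus strand), the forkhead factor that marks telocytes, had 2 UMIs in 2 of 129 polyp cells and 0 in 27 normal cells, where 3 cells of 27, or 11.1%, is taken as the limit that a count of 0 allows. The telocyte marker Foxl1 was thus nearly absent from these cells, and they are called Bmp-ligand fibroblasts and given no position. Of the other telocyte genes that the cut did not use, Sox6 had 11 UMIs in 7 polyp members and 6 UMIs in 4 normal members, Bmp3 had 6 UMIs in polyp and 3 UMIs in normal members, and Dll1 had 3 UMIs in polyp and 0 UMIs in normal members.

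**Figure D2:**
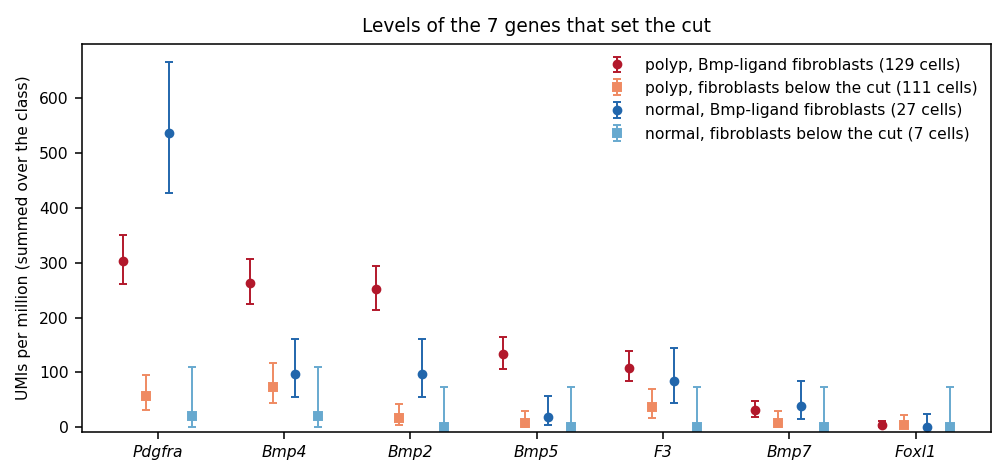
CPM of the 7 genes of the cut, summed over polyp Bmp-ligand fibroblasts, polyp fibroblasts below the cut, normal Bmp-ligand fibroblasts and normal fibroblasts below the cut; bars are exact 95% Poisson intervals, and below-cut cells hold at most 1 such UMI each by construction. Bmp4, Bmp2 and Bmp5 stand higher in polyp than in normal Bmp-ligand fibroblasts, Pdgfra stands lower, by the UMIs of 1 normal cell, and Foxl1 is near 0 in every class. Polyp members were shallower (median 3123 UMIs against 5580), and a shallower cell needs a higher CPM of these genes to pass the cut. The order of the libraries is therefore not read as a difference.

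Shares of cells with a UMI were set against leukocytes, which do not express most of these genes. Members were chosen by their UMIs of these genes, so their higher shares follow from the rule and are no support for specific expression. In polyps, Bmp4 was found in 68.2% of members and 0 of 848 leukocytes (a limit of 0.354%), Pdgfra in 64.3% of members and 0.118% of leukocytes, Bmp2 in 49.6% of members and 3.42% of leukocytes, F3 in 31.0% of members and 1.18% of leukocytes, and Bmp5 in 26.4% of members and 0 of 848 leukocytes, at median depths of 3123 UMIs in members and 2100.5 UMIs in leukocytes. Thinned to 1000 UMIs, 33.1% of polyp members held Bmp4, 34.6% Pdgfra, 26.8% Bmp2, 13.4% F3 and 12.6% Bmp5. In normal duodenum, Pdgfra was found in 74.1% of members, Bmp4 in 40.7% and Bmp2 in 44.4%, and thinned to 1000 UMIs these shares were 30.8%, 3.85% and 19.2%. Of 632 normal leukocytes 0 held Pdgfra or Bmp4, and 0.949% held Bmp2.

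Most members passed on a ligand and not on Pdgfra alone. In polyps 112 of 129 cells held a UMI of a BMP ligand, 61 held at least 2 ligands, 67 held Pdgfra with a ligand, and 16 held Pdgfra with no ligand. In normal duodenum 18 of 27 held a ligand, 7 at least 2 ligands, 12 Pdgfra with a ligand and 8 Pdgfra with none. Of the 34 polyp cells with Bmp5, 24 also held Bmp4, 22 Bmp2, 21 Pdgfra and 14 Bmp7. Of the 16 polyp cells with Bmp7, 14 held Bmp5 and 14 held Bmp2. A member needs 2 UMIs of these genes, so a cell with 1 UMI of a gene holds another by construction, and nothing is read from these overlaps.

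To describe how polyp members differed among themselves, they were split, after their values had been seen and by 2 genes of the rule, into 64 with a UMI of Bmp5 or F3 (median 3415.5 UMIs) and 65 with neither (median 2896 UMIs), and a gene was called when it had at least 20 UMIs over both sets, a ratio of at least 2 and an interval clear of 1. Of 3833 genes, 124 (3.24%) were called higher in the Bmp5-or-F3 cells and 157 (4.1%) lower. Without the top cell of each gene, 113 were higher and 119 lower among 3125, and what another split of the cells would give was not tested. Nrg1, which encodes neuregulin 1, an EGF-family growth factor of the subepithelial mesenchyme, had 42 UMIs in 15 of the 64 cells, or 114 CPM (82.3 to 154), and 0 UMIs in the 65 others, with an interval of 0 to 14.9 CPM. Procr, the endothelial protein C receptor, had 73 UMIs in 20 cells with Bmp5 or F3 and 5 UMIs in 3 cells with neither, a ratio of 9.83 (4.02 to 31.2). Col4a5, a basement membrane collagen chain, had 57 UMIs with Bmp5 or F3 and 4 UMIs with neither, a ratio of 9.59 (3.55 to 36.4).

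Further genes of this kind were the non-canonical Wnt ligand Wnt5a, with 42 UMIs in cells with Bmp5 or F3 and 6 in cells with neither (114 CPM with Bmp5 or F3 and 24.2 CPM with neither), the related Wnt4, with 31 UMIs with Bmp5 or F3 and 5 UMIs with neither (84.3 CPM with Bmp5 or F3 and 20.2 CPM with neither), and angiotensinogen, Agt, with 33 UMIs with Bmp5 or F3 and 3 UMIs with neither (89.7 CPM with Bmp5 or F3 and 12.1 CPM with neither). The endothelin receptor Ednrb, with 17 UMIs with Bmp5 or F3 and 2 UMIs with neither, had too few to be called. Postn, which encodes the matricellular protein periostin, had 595 CPM with Bmp5 or F3 and 137 CPM with neither, a ratio of 4.34 (3.01 to 6.42), and was detected in 43.8% of cells with Bmp5 or F3 and 15.4% of cells with neither. Rgs10, a regulator of G-protein signalling, had 226 CPM with Bmp5 or F3 and 48.5 CPM with neither. Bmp2, a gene of the rule, had 313 CPM with Bmp5 or F3 and 162 CPM with neither and did not reach a ratio of 2.

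The cells with neither Bmp5 nor F3 stood higher for other genes. Complement C3 had 283 CPM in cells with Bmp5 or F3 and 816 CPM in cells with neither, a level 2.89-fold lower (2.27 to 3.69). The fibrillar matrix gene Col14a1 had 101 CPM with Bmp5 or F3 and 315 CPM with neither, and the flavin monooxygenase Fmo2 had 215 CPM with Bmp5 or F3 and 678 CPM with neither. Rgs5, a gene of pericytes, had 128 CPM with Bmp5 or F3 and 388 CPM with neither. Pi16, a gene of adventitial fibroblasts, had 3 UMIs with Bmp5 or F3 and 15 UMIs with neither, 10 of them in 1 cell, and had too few to be called. Bmp4, at 212 CPM with Bmp5 or F3 and 339 CPM with neither, and Pdgfra, at 261 CPM with Bmp5 or F3 and 367 CPM with neither, did not reach a ratio of 2, nor did Grem1, at 209 CPM with Bmp5 or F3 and 291 CPM with neither.

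Epithelial transcripts differed between the sets as well. Epcam had 410 CPM in cells with Bmp5 or F3 and 311 CPM in cells with neither, and the antimicrobial lectins Reg1 and Reg3g, at 3718 and 1215 CPM in cells with Bmp5 or F3 and 541 and 250 CPM in cells with neither, were also called higher. Other epithelial genes were called lower, among them Gkn2, at 3294 CPM with Bmp5 or F3 and 8988 CPM with neither, and Gsta1, at 201 CPM with Bmp5 or F3 and 694 CPM with neither. Single cells held much of these sums: 354 of 1368 Reg1 UMIs with Bmp5 or F3, and 1642 of 2226 Gkn2 UMIs and 120 of 172 Gsta1 UMIs with neither. The immune and secretory genes Ccl4 (56 of 88 UMIs in 1 cell) and Chil4 (588 of 639) were called lower likewise, and the part of such transcripts in the split was not tested. No UMI of Epcam, Cdh1, Cldn7 or Krt8 was found in 16 members with Bmp5 or F3 and 18 members with neither. Among these, Nrg1 had 10 UMIs with Bmp5 or F3 and 0 UMIs with neither, Col4a5 had 7 UMIs with Bmp5 or F3 and 0 UMIs with neither, Agt had 6 UMIs with Bmp5 or F3 and 0 UMIs with neither, Wnt5a had 9 UMIs with Bmp5 or F3 and 1 UMI with neither, and Rgs5 had 5 UMIs with Bmp5 or F3 and 25 UMIs with neither. Of these genes Rgs5 alone had enough UMIs to be called. Procr had 4 UMIs with Bmp5 or F3 and 0 UMIs with neither. Pi16, at 2 UMIs with Bmp5 or F3 and 0 UMIs with neither, lay on the other side than over all members, as did Bmp4, at 29 UMIs with Bmp5 or F3 and 24 UMIs with neither, a ratio of 1.16 (0.654 to 2.09).

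**Figure D3:**
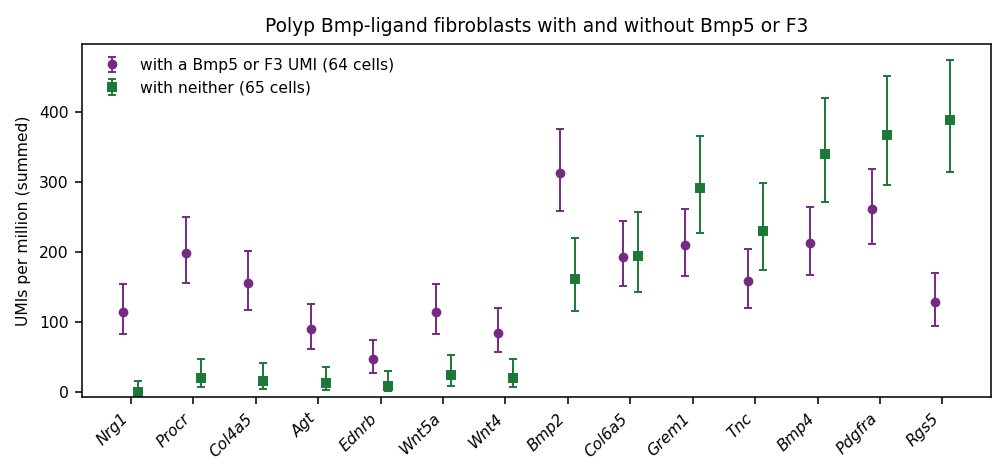
CPM, summed over polyp Bmp-ligand fibroblasts with a Bmp5 or F3 UMI (64 cells) and with neither (65 cells), with exact 95% Poisson intervals. Nrg1, Procr, Col4a5, Agt, Wnt5a and Wnt4 stand higher with Bmp5 or F3, while Rgs5 stands higher with neither; Col6a5 is near 193 in both.

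Polyp Bmp-ligand fibroblasts were next set against the 111 polyp fibroblasts below the cut. The villus-tip and telocyte list leaned to the Bmp-ligand fibroblasts, and the list for deep interstitial fibroblasts to those below the cut. Both lists were free of the genes of the cut and compiled from knowledge of these cells. They were chosen with earlier results of these data known, so the lean is no support for the identity of the class. By the same rule, 131 of 4977 genes (2.63%) were called higher in the Bmp-ligand fibroblasts and 136 (2.73%) lower, with a median log2 ratio of -0.00337 over all genes. Since depth differed between the classes and the cut is in UMIs, this is a description and no test.

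Of 25 villus-tip and telocyte genes, 13 had enough UMIs, and 6 were called higher and 0 lower, with a median log2 ratio of 0.83. Wnt5a had 48 UMIs in Bmp-ligand fibroblasts, or 78.0 CPM, and 9 UMIs below the cut, or 36.8 CPM, a ratio of 2.12 (1.03 to 4.91). Wnt4 had 36 UMIs in members and 3 UMIs below the cut, a ratio of 4.76 (1.5 to 24.2), Agt had 36 UMIs in members and 5 UMIs below the cut, a ratio of 2.86 (1.12 to 9.33), and Ednrb had 19 UMIs in members and 1 UMI below the cut, a ratio of 7.54 (1.20 to 313). Col6a5, a collagen VI chain, had 193 CPM in members and 94.1 CPM below the cut, and Procr had 127 CPM in members and 61.4 CPM below the cut. Below the cut, Ednrb had a single UMI and Wnt4 had 3, so the size of their ratios is poorly fixed.

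Of the 7 genes not called, Nrg1 had 68.2 CPM in members and 36.8 CPM below the cut, a ratio of 1.85 (0.889 to 4.33), and Tnc, the matrix protein tenascin C, had 187 CPM in members and 266 CPM below the cut. Under 8 other choices of cells or weights, between 2 and 10 of the list's measured genes were called higher and 0 or 1 lower. The smallest count, 2 of 4, came from the cells without a UMI of Epcam, Cdh1, Cldn7 or Krt8, called cells without epithelial UMIs here. They were 34 in the Bmp-ligand class and 39 below the cut. In those cells Procr had 4 UMIs in Bmp-ligand fibroblasts and 6 below the cut, a log2 ratio of -1.16. Cells without epithelial UMIs in this sense still held other epithelial transcripts, since Tff2 was found in 100% of polyp members.

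Of 20 deep interstitial genes, 18 had enough UMIs, and 0 were called higher and 4 lower, with a median log2 ratio of -0.79. Pi16 had 29.2 CPM in Bmp-ligand fibroblasts and 164 CPM below the cut, a level 5.60-fold lower (3.14 to 10.4). Ly6c1, a surface antigen of adventitial fibroblasts, had 19.5 CPM in members and 106 CPM below the cut, Pcolce2, an enhancer of procollagen processing, had 8.12 CPM in members and 69.6 CPM below the cut, and Fbn1, the microfibril protein fibrillin 1, had 79.6 CPM in members and 176 CPM below the cut. Grem1, the BMP antagonist gremlin 1, had 149 UMIs in Bmp-ligand fibroblasts, or 242 CPM, and 110 UMIs below the cut, or 450 CPM; its ratio of 0.538 (0.417 to 0.694) did not reach a 2-fold difference. Grem1 was detected in 32.6% of Bmp-ligand fibroblasts and 32.4% of fibroblasts below the cut, so 42 of the 129 members held the antagonist as well. The shares were taken at unlike depth, as members were deeper than cells below the cut. When the cut was applied after thinning to 1000 UMIs (57 cells against 150), the list's median turned to 0.22 with 1 gene higher and 1 lower. The median over all genes was 0.13 in that setting. Pi16 stayed lower at -1.84 on the log2 scale, and Fbn1 turned to 1.04.

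**Figure D4:**
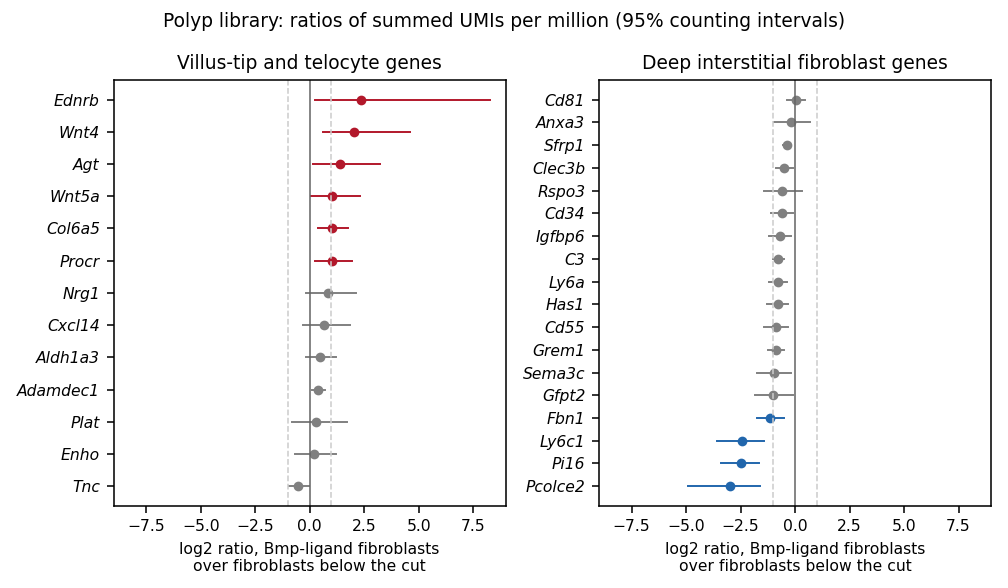
Log2 ratios of summed CPM, polyp Bmp-ligand fibroblasts over polyp fibroblasts below the cut, for the genes of each list with at least 20 UMIs; lines are 95% counting intervals, dashed lines mark 2-fold, red and blue points are genes called higher and lower. Ednrb, Wnt4, Agt, Wnt5a, Col6a5 and Procr are called higher, and Pcolce2, Pi16, Ly6c1 and Fbn1 lower.

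Among signalling genes outside those lists, few differed between the classes. Of 14 BMP antagonists 4 had enough UMIs, and of 19 BMP receptors and target genes 11 had, and 0 were called in either direction, with median log2 ratios of -0.20 and 0.22. Of 21 genes in the list for Notch, EGF and FGF ligands 7 were measured and 0 called. In the hedgehog list Foxf2, a mesenchymal target of epithelial hedgehog, had 55.2 CPM in members and 12.3 CPM below the cut, a ratio of 4.50 (1.41 to 22.9), while the co-receptor Gas1 had 86.1 CPM in members and 250 CPM below the cut, 2.90-fold lower (1.97 to 4.27). Retinol-binding protein, Rbp4, was the called gene of the retinoid list, at 69.9 CPM in members and 12.3 CPM below the cut. The LKB1 pathway list of 24 genes gave 0 calls among 6 measured, and targets of CREB 0 among 10.

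Matrix genes separated the classes in part. Of 13 basement membrane genes Col4a5 alone was called, at 99.1 CPM in members and 24.6 CPM below the cut, a ratio of 4.04 (1.75 to 11.4). Of 17 fibrillar matrix genes 0 were higher and 3 lower, namely Fbn1, Fbln2 and Mfap5, and the list's median log2 ratio was -0.51. Mfap5, a microfibril-associated protein, had 109 CPM in members and 512 CPM below the cut, 4.70-fold lower (3.47 to 6.42), with 63 of its 125 UMIs below the cut in 1 cell. Of 17 remodelling genes the inhibitors Timp1 and Timp3 were lower, and of 19 inflammatory genes Il6, Cxcl2, Ccl7 and Ccl8 were lower, with Il6 at 53.6 CPM in members and 131 CPM below the cut. After thinning, the fibrillar and inflammatory lists turned to 9 of 17 and 8 of 19 genes higher and 0 lower in each. Over all 4859 genes measured in that setting, 366 were higher and 283 lower, with a median log2 ratio of 0.13.

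Ranked by the interval end nearest 1 over all genes, the list of higher genes mixed stromal and epithelial transcripts. Ogn, the small proteoglycan osteoglycin, had 409 CPM in Bmp-ligand fibroblasts and 151 CPM below the cut, a ratio of 2.70 (1.91 to 3.93), and was detected in 50.4% of members and 21.6% of cells below the cut. Rbpms, an RNA-binding protein of mesenchymal cells, had 192 CPM in members and 65.5 CPM below the cut, a ratio of 2.93 (1.73 to 5.29), in 53.5% of members and 12.6% of cells below the cut. These shares were taken at unlike depth, with a median of 3123 UMIs in members and 1573 UMIs below the cut. Ogn, Rbpms and Col4a5 stood far above their level over the whole polyp library, which was 8.66 CPM for Ogn, 44.1 CPM for Rbpms and 5.03 CPM for Col4a5. Erp44, a chaperone of the secretory pathway, had 84.5 CPM in members and 24.6 CPM below the cut, with 93.3 CPM in the library. The rest of the ranked genes included Chil4, Reg1, Reg3g, Dmbt1, Pigr, Sec11c and Wfdc2. Of these 7 genes, 6 had a library level above that in the Bmp-ligand fibroblasts (Reg1 2440 CPM in the class and 2984 CPM in the library), and 588 of the 653 Chil4 UMIs came from 1 cell. With the cut applied after thinning, these 7 genes were lower in members, at log2 ratios of -5.13 for Chil4 to -0.82 for Sec11c, while Ogn was at 1.49, Rbpms at 1.39 and Col4a5 at 3.29.

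The genes ranked lower were mostly stromal. Beside Mfap5, Pi16, Rgs5 and Gas1 they held Ebf1, a transcription factor of adipogenic and perivascular mesenchyme, with 34.1 CPM in members and 180 CPM below the cut, 5.28-fold lower (3.07 to 9.35). With the cut applied after thinning, Ebf1 turned to 0.31 and Gas1 to 0.26 on the log2 scale, and Rgs5 turned to 0.44 in the cells without epithelial UMIs. Cilp, a matrix protein of cartilage and fibroblasts, had 79.6 CPM in members and 319 CPM below the cut, Col8a1 had 52.0 CPM in members and 180 CPM below the cut, Timp3 had 159 CPM in members and 442 CPM below the cut, Gpc3, a glypican, had 35.7 CPM in members and 115 CPM below the cut, and the imprinted non-coding RNA Meg3 had 158 CPM in members and 364 CPM below the cut. Clps, a pancreatic enzyme cofactor, at 174 CPM in members and 573 CPM below the cut, and Lypd8, an epithelial gene with 51 of its 69 below-cut UMIs in 1 cell, completed the list. Lypd8 turned to 3.07 in the cells without epithelial UMIs.

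Markers of other cells were measured in both classes. The epithelial list summed to 68443 CPM in polyp Bmp-ligand fibroblasts and 54432 CPM below the cut, led by the mucin-associated trefoil gene Tff2, at 41084 CPM in members and 32287 CPM below the cut. Epcam was found in 31.8% of members and 21.6% of cells below the cut, and after thinning in 18.1% of members and 12.5% of cells below the cut. Of the leukocyte list, without Ptprc, 3 genes were measured and Jchain was called, at 1769 CPM in members and 258 CPM below the cut, with 505 of 1089 UMIs in 1 cell; the list summed to 1980 CPM in members and 446 CPM below the cut. Pericyte genes summed to 340 CPM in members and 774 CPM below the cut. Of this, Rgs5 made 232 CPM in members and 589 CPM below the cut, and Mcam was at 0 in both. Msln, which marks mesothelium, had 45 UMIs, all in 1 polyp member, and 0 below the cut. The part of these transcripts in the results above was not tested.

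Few normal fibroblasts lay below the cut, and with 7 cells the comparison within normal duodenum rests on them. Of 1501 genes, 124 (8.26%) were called higher in the 27 Bmp-ligand fibroblasts and 91 (6.06%) lower. The nuclear RNA Malat1 had 11044 CPM in members and 2259 CPM below the cut, a ratio of 4.89 (4.05 to 5.96). Clec3b, which encodes tetranectin, had 1191 CPM in members and 236 CPM below the cut, a ratio of 5.05 (2.82 to 9.96), Tnfaip6, a hyaluronan-binding protein, had 65 UMIs in members and 1 UMI below the cut, and the chemokine Cxcl12 had 38 UMIs in members and 0 UMIs below the cut. Mmp3, a stromelysin, had 36 UMIs in members and 0 UMIs below the cut, with 20 in 1 cell. With the cut applied after thinning, which left 2 normal members, Tnfaip6 turned to -0.68 and Mmp3 to -1.42 on the log2 scale. Of 9 measured genes of lamina propria fibroblasts 8 were higher and 0 lower, among them Ccl11 (eotaxin), at 1042 CPM in members and 275 CPM below the cut, and Gsn (gelsolin), at 6804 CPM in members and 2887 CPM below the cut. Adamdec1, a metalloprotease gene of the lamina propria, was the villus-tip list's higher gene, with 58 UMIs in members and 0 UMIs below the cut. The deep interstitial list did not lean to the cells below the cut as it did in polyps. Of 18 measured genes 4 were higher (Clec3b, Sfrp1, Has1 and Fbn1) and 1 lower (C3). The list's median log2 ratio was 0.42, against 0.096 over all genes.

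The genes lower in normal Bmp-ligand fibroblasts came largely from a few below-cut cells. Igfbp5 had 673 CPM in members and 4793 CPM below the cut, with 177 of its 244 below-cut UMIs in 1 cell, and the plasma cell gene Mzb1 had 0 UMIs in members and 24 UMIs below the cut, all in 1 cell. Ano1, Arhgef12 and Dmkn were also ranked, and in the cells without epithelial UMIs Arhgef12 turned to 0.0387 and Dmkn to 1.14 on the log2 scale. Of 7 measured mesothelial genes 5 were lower and 0 higher, and the list summed to 1495 CPM in members and 4969 CPM below the cut. Msln or Upk3b was held by 3 of 27 normal Bmp-ligand fibroblasts and 2 of 7 normal fibroblasts below the cut. With those cells left out, 56 genes were higher and 14 lower.

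Polyp Bmp-ligand fibroblasts were finally set against normal ones. Growth factor transcripts of the EGF family and 4 BMP targets (2 of them without scaling to the median gene) stood higher in the polyp cells. Genes of interstitial and adventitial fibroblasts stood lower, and of 9 regional transcription factors 3 stood higher and 5 lower. Of 4785 genes, 371 (7.75%) were called higher and 507 (10.6%) lower. The median gene had a log2 ratio of -0.15, and relative to it 462 were higher and 415 lower; the ratios in this comparison are given relative to the median gene. Group, dissection and library coincide and cannot be told apart. In sums over a class, fewer cells of a kind and less RNA per cell cannot be told apart.

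Epithelial transcripts in the members differed between the libraries and led the ranking, and their origin was not tested. The 10 genes ranked highest were Tff1, Gkn1, Tff2, Gkn2, Gkn3, Agr2, Chil4, Fxyd3, Reg3b and Reg3g, all secreted or surface products of gastric or intestinal epithelium. Tff1 and the gastrokines Gkn1, Gkn2 and Gkn3 are known from stomach, whereas the labels name duodenum for both samples. Tff1 had 17544 CPM in polyp and 58.3 CPM in normal Bmp-ligand fibroblasts, against 32435 CPM over all kept polyp barcodes and 1643 CPM over all kept normal barcodes. For 9 of the 10 the polyp library's level exceeded that in the polyp members, and for Chil4 588 of 653 UMIs were in 1 cell. The epithelial list summed to 68443 CPM in polyp and 1398 CPM in normal members, erythroid genes to 1376 CPM in polyp and 149 CPM in normal cells, and pancreatic acinar genes to 617 CPM in polyp and 3910 CPM in normal cells; their part in the results was not tested. Of the 371 genes called higher, 114 stood at or above their level in the polyp library and 257 below it. Of the 507 called lower, 477 stood at or above their level in the normal library and 30 below it.

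The called genes were also ranked among those at or above their level in a mostly epithelial library, a choice made after seeing the data that favours stromal genes by construction. Chil4, held mainly by 1 cell, still came first. Sfrp1, a secreted Wnt inhibitor, had 972 UMIs in polyp and 65 in normal members, or 1579 CPM in polyp and 421 CPM in normal cells, a ratio of 4.17 (3.24 to 5.44). Tnc had 187 CPM in polyp and 32.4 CPM in normal cells, a ratio of 6.41 (2.67 to 20.1), and Col6a5 had 193 CPM in polyp and 19.4 CPM in normal cells, a ratio of 11.1 (3.69 to 54.4) on 119 UMIs in polyp and 3 UMIs in normal cells. Rgs5 had 143 UMIs in polyp and 2 UMIs in normal cells, Gucy1a1, a subunit of the nitric oxide receptor, had 59 UMIs in polyp and 0 UMIs in normal cells and was at least 5.48-fold higher (against 3 counts in the normal class), and the stromelysin Mmp10 had 56 UMIs in polyp and 0 UMIs in normal cells and was at least 5.20-fold higher. Agt had 36 UMIs in polyp and 0 UMIs in normal cells, at least 3.34-fold higher. Below the cut, against 7 normal cells, these genes lay on the same side. There Sfrp1 had 502 UMIs in polyp and 8 in normal cells, Tnc 65 and 0, Col6a5 23 and 0, and Rgs5 144 and 0. Gucy1a1 had 23 UMIs in polyp and 1 in normal cells below the cut, Mmp10 12 and 0, Agt 5 and 0, and Chil4 31 and 0. With the cut applied after thinning, which left 2 normal members, Rgs5 turned to -0.27 and Chil4 to -1.28 on the log2 scale.

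Grem1 had 149 UMIs in 42 polyp members, or 242 CPM, and 9 UMIs in 2 normal members, or 58.3 CPM, a ratio of 4.61 (2.37 to 10.3), with 8 of the normal UMIs in 1 cell. Below the cut it had 450 CPM in polyp and 0 UMIs in the 7 normal cells. Fstl1, a follistatin-like protein, had 219 CPM in polyp and 809 CPM in normal cells, 3.32-fold lower (2.58 to 4.27), and no other antagonist was called among 5 measured.

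Direct targets of BMP signalling were measured apart from the ligands. Of 11 measured receptors and targets, 4 were higher and 1 lower relative to the median gene, and 2 and 1 without that scaling. Id2, an inhibitor of differentiation, had 235 UMIs in polyp and 4 UMIs in normal cells, or 382 CPM in polyp and 25.9 CPM in normal cells, a ratio of 16.4 (6.31 to 60.6). Smad7, the inhibitory SMAD, had 94.2 CPM in polyp and 25.9 CPM in normal cells, a ratio of 4.04 (1.5 to 15.3), Id3 had 765 CPM in polyp and 395 CPM in normal cells, a ratio of 2.15 (1.65 to 2.86), and Id1 had 395 CPM in polyp and 214 CPM in normal cells, a ratio of 2.05 (1.42 to 3.05). The type II receptor Bmpr2 had 65.0 CPM in polyp and 155 CPM in normal cells, 2.15-fold lower (1.24 to 3.66). Over all kept polyp barcodes Id2 stood at 446 CPM and Id1 at 535 CPM, above their level in the polyp members, whereas Id3, at 495 CPM, and Smad7, at 72.0 CPM, stood below it. Below the cut, Id2 had 217 CPM in polyp and 98.2 CPM in normal fibroblasts.

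All 4 calls among 8 measured genes of the list for EGF, Notch and FGF ligands were higher in polyp members, and all were EGF-family ligands. This was not particular to the members. Below the cut, against 7 normal cells, 3 ligands of the list were measured, namely Areg, Hbegf and Igf1, of which Igf1 belongs to none of the families named. All 3 were called higher in polyp fibroblasts, and 2 relative to the median gene. Of all 2012 genes measured there, 206 were called higher. Hbegf had 167 UMIs, or 271 CPM, in polyp and 3 UMIs, or 19.4 CPM, in normal members, a ratio of 15.5 (5.22 to 76.0), with 47 of its polyp UMIs in 1 cell. Ereg (epiregulin) had 91.0 CPM in polyp and 12.9 CPM in normal cells, a ratio of 7.80 (2.06 to 66.0), Nrg1 had 68.2 CPM in polyp and 12.9 CPM in normal cells, a ratio of 5.85 (1.52 to 49.9), and Areg (amphiregulin) had 81.2 CPM in polyp and 19.4 CPM in normal cells, a ratio of 4.64 (1.5 to 23.3). The 2 normal UMIs of Nrg1 were in 1 cell, as were those of Ereg. Ereg and Nrg1 stood far above the polyp library, where Ereg had 1.96 CPM and Nrg1 had 2.09 CPM, whereas Hbegf, at 415 CPM, and Areg, at 175 CPM, were more abundant in the library than in the members.

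Transcription factors of regional mesenchyme differed in both directions. Barx1, a homeobox factor of stomach and upper gut mesenchyme, had 37 UMIs in 23 of 129 polyp members and 0 UMIs in 27 normal members, where a share of up to 11.1% was allowed, and was at least 3.44-fold higher. It was found in 0 of 848 polyp leukocytes, and below the cut it had 81.9 CPM in polyp and 0 UMIs in normal fibroblasts. Pitx1, a homeobox factor of hindlimb and foregut mesenchyme, had 32 UMIs in polyp and 0 UMIs in normal cells and was at least 2.97-fold higher. Pitx1 stood at 52.0 CPM in polyp members, 20.5 CPM in polyp fibroblasts below the cut and 21.2 CPM over the whole polyp library. Barx1 stood at 2.85 CPM over that library. Isl1, a LIM homeobox factor, had 34 UMIs in polyp and 1 UMI in normal cells, a ratio of 9.48 (1.59 to 385). Gata6 had 14.6 CPM in polyp and 77.7 CPM in normal cells, 4.78-fold lower (1.85 to 12.9), and Meis1 had 29.2 CPM in polyp and 77.7 CPM in normal cells. Nkx2-3, a homeobox factor of midgut and hindgut mesenchyme, and Nr2f2 each had 42.2 CPM in polyp and 97.1 CPM in normal cells, 2.07-fold lower (1.02 to 4.06). In all, 3 were higher and 5 lower among 9 measured. Without the top cell of each gene, 3 higher genes and 1 lower gene were called among 8.

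Interstitial genes made the widest block of lower values. Of 20 deep interstitial genes, all measured, 15 were lower and 2 (Grem1 and Sfrp1) higher, with a median log2 ratio of -2.33 relative to the median gene. Complement C3 had 306 UMIs in polyp and 714 UMIs in normal cells, or 497 CPM in polyp and 4622 CPM in normal cells, 8.37-fold lower (7.31 to 9.60), and with the cut applied after thinning, which left 2 normal members, it turned to 0.95 on the log2 scale. Dpp4, a protease of adventitial progenitor fibroblasts, had 3 UMIs in polyp and 29 UMIs in normal cells, 34.7-fold lower (10.8 to 178), Pi16 had 29.2 CPM in polyp and 265 CPM in normal cells, 8.17-fold lower (4.59 to 15.1), Ly6c1 had 19.5 CPM in polyp and 265 CPM in normal cells, 12.3-fold lower (6.32 to 25.6), and Pcolce2 had 8.12 CPM in polyp and 298 CPM in normal cells, 33.0-fold lower (13.2 to 106). Cd34, a stromal sialomucin, had 151 CPM in polyp and 440 CPM in normal cells, 2.62-fold lower (1.89 to 3.63). Beyond the list, Ebf1 had 34.1 CPM in polyp and 777 CPM in normal cells, 20.5-fold lower (12.8 to 34.3), Cd248 (endosialin) had 24.4 CPM in polyp and 537 CPM in normal cells, 19.9-fold lower (11.4 to 37.1), and Mfap5 had 109 CPM in polyp and 1217 CPM in normal cells, 10.1-fold lower (7.58 to 13.5).

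Below the cut, where normal duodenum had 7 cells, C3, Ebf1 and Cd248 were also lower in polyp than in normal fibroblasts. There C3 had 843 CPM in polyp and 13946 CPM in normal cells, Ebf1 had 180 CPM in polyp and 471 CPM in normal cells, and Cd248 had 65.5 CPM in polyp and 334 CPM in normal cells. Mfap5 had 512 CPM in polyp and 570 CPM in normal cells, a nearer pair than in the Bmp-ligand class, and the difference between the classes was not tested. Other genes ranked lowest in polyp members were Fabp1, Apoa1, Defa24, Cpa1, Slpi, Sbsn and Ccn3. Fabp1 and Apoa1, of absorptive cells, Defa24, of Paneth cells, and Cpa1, of the pancreas, were more abundant over the normal library than in its members, and 306 of the 590 Slpi UMIs came from 1 normal cell. Slpi turned to 0.76 with the cut after thinning and to 3.26 without cells holding Msln or Upk3b.

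**Figure D5:**
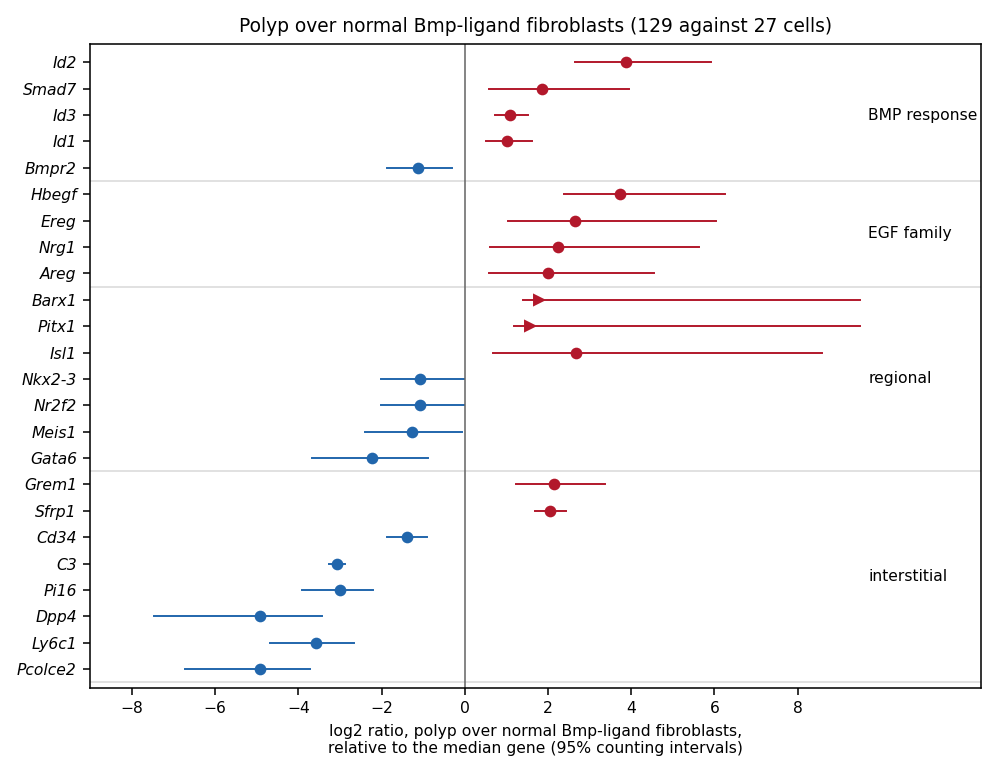
Log2 ratios of summed CPM, 129 polyp over 27 normal Bmp-ligand fibroblasts, relative to the median gene; lines are 95% counting intervals, and triangles mark genes with 0 normal UMIs, drawn at their lower bound against 3 counts with a line that is open to the right. EGF-family genes, Id genes, Barx1, Pitx1, Isl1, Grem1 and Sfrp1 lie to the right, and C3, Pi16, Dpp4, Ly6c1 and Pcolce2 to the left.

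Genes of the villus-tip and telocyte list did not move as a block between the libraries. Relative to the median gene 8 were higher and 3 lower among 14 measured, with a median log2 ratio of 1.40. Procr had 127 CPM in polyp and 25.9 CPM in normal cells, Cxcl14, a chemokine, 66.6 CPM in polyp and 19.4 CPM in normal cells, and Enho, which encodes adropin, 66.6 CPM in polyp and 6.47 CPM in normal cells. Wnt5a ran the other way, at 78.0 CPM in polyp and 278 CPM in normal members, 3.21-fold lower (2.08 to 4.96), with 18 of its 43 normal UMIs in the 3 cells that held Msln or Upk3b. Foxf1, a hedgehog target of gut mesenchyme, had 84.5 CPM in polyp and 32.4 CPM in normal cells, a ratio of 2.90 (1.17 to 9.30), and the hedgehog receptor Ptch1 had 149 CPM in polyp and 77.7 CPM in normal cells, a ratio of 2.14 (1.17 to 4.29). Of 16 measured complement and interferon genes 8 were lower and 0 higher, and of 6 measured genes of the LKB1 pathway list none was called.

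Cells above the contractile limit were too few to be described in depth. The 16 polyp cells that passed the collagen gate but not that limit had 176 CPM of Bmp4, 110 of Bmp5, 154 of F3, 55.0 of Pdgfra and 605 of Grem1. The 3 such normal cells had 7 UMIs of Bmp5, or 300.03 CPM (121 to 618), against 19.4 CPM in normal members. They also had 3 UMIs of Bmp4, or 129 CPM, 5 UMIs of F3, or 214 CPM, and 20 UMIs of Pdgfra and 13 UMIs of Grem1, each in a single cell. Bmp5 and F3 were thus also found in cells that the contractile limit left out.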

How the data were processed

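Single-cell libraries of polyps and of normal duodenum (1 of each, from 3 mice a group) were read from UMI count matrices that the authors deposited, made with Cell Ranger against mm10; the version is 3.0.0 per the submitters' processing notes and 5.0.0 per the file headers, and the annotation release is not given in the sources used here. The deposited counts are not normalized. Cells, gates and classes were built from them as the report states (14327 polyp and 9950 normal barcodes, of which 8460 and 3252 were kept; 63566462 and 39222238 UMIs). The members and the gene lists were chosen with earlier results of these data known. Gene positions came from GENCODE annotation of GRCm38.

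UMIs were summed per class and given as CPM, with exact Poisson intervals. Ratios have exact conditional binomial intervals, and shares Clopper-Pearson intervals. A gene was called with at least 20 UMIs over both classes, a ratio of at least 2 and an interval clear of 1; log2 ratios use 0.5 added UMIs. No test was made, since each group has 1 library. The counts were checked on simulated data with known fold changes. The rule for named genes took those called with at least 50 UMIs (20 where a class had under 50 cells) in at least 10% of the cells of the higher class, ranked by the interval end nearest 1: the first 12 in either direction within polyps, 5 within normal duodenum and 10 for polyp over normal. The ranking passed over genes of the gates and cut and those of mitochondria, ribosomes, haemoglobin, immunoglobulins, Xist and the Y chromosome, as well as gene models without a name. A few genes of the ranking and the lists are counted but not reported here. Other genes of the lists were named with their list, and the Bmp5-or-F3 split was added after the data were seen.

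Doublets were not removed. The scrublet caller (scanpy 1.11.5) marked 0 barcodes by its automatic threshold and so did not work; as an alternative, the highest scores, at 0.8% per 1000 cells, were left out, which included 20 polyp and 1 normal Bmp-ligand fibroblasts and 20 and 0 below the cut. Other alternatives were a cut of 3 UMIs, a cut after thinning to 1000 UMIs, strict filters, no epithelial UMIs, a contractile limit of 0.2%, at least 2000 UMIs, equal weights, another total, median-gene scaling, a minimum of 50 UMIs or none, no top cell, a reference of 0 UMIs, a ratio of 1.5, and no Msln or Upk3b cells. No epithelial UMIs means no UMI of Epcam, Cdh1, Cldn7 or Krt8, and such cells can hold other epithelial transcripts. Python 3.11.15, numpy 2.4.6, scipy 1.17.1 and pandas 2.3.3 were used.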

Additional observations from a re-analysis of the deposited data

Results flagged for a closer look

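Some genes differed one way between Bmp-ligand and below-cut fibroblasts in polyps and the other way in normal duodenum. For Fbn1 the log2 ratio of Bmp-ligand fibroblasts over those below the cut was -1.15 in polyps and 1.34 in normal duodenum. It was -2.23 in polyps and 1.07 in normal duodenum for Mfap5, -1.25 in polyps and 1.47 in normal duodenum for Penk, -1.25 in polyps and 2.16 in normal duodenum for Gdf10, and -1.15 in polyps and 2.41 in normal duodenum for Ccl7. The other direction was seen for Slpi, at 2.24 in polyps and -1.70 in normal duodenum, for Jchain, at 2.77 in polyps and -6.87 in normal duodenum, for Msln, at 5.17 in polyps and -1.71 in normal duodenum, and for Sec11c, at 1.11 in polyps and -2.47 in normal duodenum. Each gene was called in both libraries, and the difference between the libraries was not tested. The normal class below the cut had 7 cells, 2 of which held Msln or Upk3b and 1 of which held plasma cell transcripts, and all 45 polyp Msln UMIs came from 1 cell.

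Outside the kept barcodes, those over 25% mitochondrial UMIs also held cells that passed every other gate and the cut: 7 of 3453 in the polyp library, or 0.203% (0.0815 to 0.417), and 2 of 4549 in the normal library, or 0.0440% (0.00532 to 0.159).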

How the results depend on the processing

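No paired analysis was possible because each group has 1 library, and for the same reason no replicate could be left out. The share of fibroblasts past the cut was 53.75% in polyps and moved to 37.1% with a cut of 3 UMIs, 27.5% after thinning, 60.8% with strict filters, 46.6% without epithelial UMIs and 70.7% at 2000 or more UMIs; in normal duodenum it was 79.4% and moved to 50.0% and 6.25% under the first 2 of these.

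Within polyps, 131 genes were higher and 136 lower in Bmp-ligand fibroblasts. The counts became 366 and 283 after thinning, 36 and 34 without epithelial UMIs, and 53 and 45 at 50 or more UMIs; 347 were higher with equal weights, and the lower count became 277 with no minimum, 74 without the top cell and 233 at a ratio of 1.5. Within normal duodenum (124 and 91), they became 45 and 13 without epithelial UMIs, 72 and 29 at 50 or more UMIs, 261 and 14 without the top cell, and 56 and 14 without Msln or Upk3b cells; 73 were higher after thinning, 196 with equal weights, and 214 were lower with no minimum. For polyp over normal members (371 and 507) they became 65 and 75 after thinning, which left 2 normal cells, 78 and 67 without epithelial UMIs, and 235 and 226 at 50 or more UMIs; the lower count became 933 with no minimum and 298 without the top cell. Fewer cells and genes were measured without epithelial UMIs, and fewer genes at 50 or more UMIs. Within polyps 4977 genes were measured, and 1067 without epithelial UMIs, 2210 at 50 or more UMIs and 4315 without the top cell. Within normal duodenum 1501 were measured, and 323 without epithelial UMIs, 1084 without the top cell and 998 without Msln or Upk3b cells. Polyp over normal members had 4785 genes measured, 1210 after thinning, 900 without epithelial UMIs and 4054 without the top cell. The cause of the changed counts was not tested.

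Some genes changed sign, given here as log2 ratios. After thinning, polyp Bmp-ligand fibroblasts over those below the cut had -5.13 for Chil4, -2.45 for Reg1, -1.95 for Reg3g, -3.60 for Dmbt1, -2.37 for Pigr, -0.82 for Sec11c, -1.45 for Wfdc2, 0.31 for Ebf1 and 0.26 for Gas1; normal ones had -0.68 for Tnfaip6, -1.42 for Mmp3 and 0.20 for Dmkn; polyp over normal members had -1.28 for Chil4, 0.76 for Slpi, -0.27 for Rgs5, -0.30 for Col4a5, -0.0595 for Cxcl13, -0.11 for Ces1d and 0.95 for C3. Without epithelial UMIs, polyp ratios were -2.56 for Chil4, -0.47 for Dmbt1, -0.92 for Wfdc2, 0.44 for Rgs5 and 3.07 for Lypd8, and normal ones 0.0387 for Arhgef12 and 1.14 for Dmkn. Lypd8 was 1.24 without the highest doublet scores, 0.86 against cells at 0 UMIs and 0.0157 with equal weights, where Reg3g was -0.0169. Chil4 was -0.0810 without its top cell. Without Msln or Upk3b cells, Ano1 was 0.26 in normal duodenum and Slpi 3.26 for polyp over normal. Of the remaining gene values, 1126 were within the counting interval and 164 moved beyond it without a change of sign.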
